A study of Homo sapiens with 4 samples.

Results

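The genes described here are the keratin genes other than KRT8 and KRT18, which were taken by symbol from the protein-coding RefSeq genes on GRCh38: KRT followed by digits and at most 1 letter, with the keratin-associated KRTAP genes left out. The rule gave 53 of 20037 protein-coding genes. Of these, 25 are type II keratins in 1 cluster on chromosome 12, and 28 are type I keratins in 1 cluster on chromosome 17. The study sequenced DNA that came down with a FOXK1 antibody from HK-2, a line of human kidney proximal tubule cells immortalised with papillomavirus genes, after paraformaldehyde fixation and fragmentation with MNase and sonication. The control group is HK-2 cells without TGF-β1, and the treated group is the same line given 10 ng/ml TGF-β1 for 24 h. TGF-β1 is a cytokine that drives fibrosis. Each group had 1 FOXK1 library and 1 input library, so every value below describes 1 library, no difference between the groups could be tested, and no p-value is given. The deposited lists give peak positions and a whole-number signal per peak, read here as pileup height, with no RNA, so no marker of the cell type could be read from them.

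Keratins are the intermediate filament proteins of epithelia. A filament is built from heterodimers of an acidic type I chain and a basic type II chain, and each epithelium expresses its own pairs, such as KRT5 with KRT14 in the basal layer of the epidermis and KRT1 with KRT10 above it. Simple epithelia such as the kidney tubule use KRT8 and KRT18, often with KRT7 and KRT19, while most other members of the family belong to epidermis, mucosa, cornea or hair. FOXK1 is a forkhead transcription factor, a family that binds DNA at a TAAACA core.

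The control list held 381700 peaks and the TGF-β1 list 439136 on assembled chromosomes, with a median height of 5 in each. A peak was called strong when it reached the height of the 10000th highest peak of its list, 17 for control peaks and 15 for TGF-β1 peaks. Sequencing depth is unknown and the height is not known to be scaled to it, so heights of both lists are given side by side and are not a measure of change. Where a pair of values is given without further words, the control value comes first and the TGF-β1 value follows.

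Most keratin genes had only low FOXK1 peaks, and a few type II genes had high ones. A peak of any height overlapped the gene plus 1 kb on each side at 41 of 53 keratin genes in the control list, and also at 41 of 53 after TGF-β1. This was 77.4% in each (exact binomial 95% interval 63.8 to 87.7, which covers counting error only and treats neighbouring genes as independent), against 89.7% and 89.4% of all protein-coding genes. Keratin genes are short, with a median of 6433 bp against 24115 bp, so genes of like length are given beside them. Among the 9991 protein-coding genes within the keratin length range, whose median was 13134 bp, 89.4% and 89.0% had a peak. Among the 3078 genes of 4 to 10 kb, a range chosen after the values were seen and with a median of 6737 bp, the shares were 82.8% and 81.8%. Both lie inside the interval of the keratin share. Peaks of any height thus did not separate the keratin genes from genes of 4 to 10 kb, the set nearest to them in median length. Peaks covered 6.85% and 6.75% of the bases at keratin genes, close to the 6.96% and 7.62% at all protein-coding genes. The shares were higher in the sets nearer in length, 9.76% and 9.62% in the keratin length range and 11.7% and 11.0% at 4 to 10 kb.

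Keratin genes differed from the background in peak height. The highest peak of a keratin gene that had one was at a median of 5 in each list, against 12 and 10 over all protein-coding genes with a peak, 10 and 9 in the keratin length range and 9 and 8 at 4 to 10 kb. It was 7 or lower at 31 of the 41 control genes and 33 of the 41 TGF-β1 genes. A peak of height 10 or more was found at 8 and 6 keratin genes, or 15.1% (95% interval 6.75 to 27.6) and 11.3% (4.27 to 23). The background was 55.2% and 48.0% of all protein-coding genes, 47.8% and 39.6% of those in the keratin length range, and 39.8% and 31.6% of those of 4 to 10 kb. All these backgrounds lay above the interval of the keratin share. Within the 38 keratin genes that are themselves 4 to 10 kb long, 3 and 1 had such a peak, 7.89% (1.66 to 21.4) and 2.63% (0.0666 to 13.8). Strong peaks were found at 4 keratin genes in each list, 7.55% (2.09 to 18.2), against 27.6% and 26.4% of all genes and 20.8% and 19.0% of those in the keratin length range. The 17.1% and 14.7% of genes of 4 to 10 kb lay inside the interval of all keratin genes. Of the 38 keratin genes of that length themselves, 1 had a strong peak in each list, 2.63% (0.0666 to 13.8), and there the background lay above the interval. KRT7, KRT86 and KRT78 had a strong peak in both lists, 3 of 53 genes, where the background was 21.2%, 14.6% and 11.4% in the same 3 sets. No interval was computed for this share, so it is not set apart from these backgrounds.

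**Figure D1:**
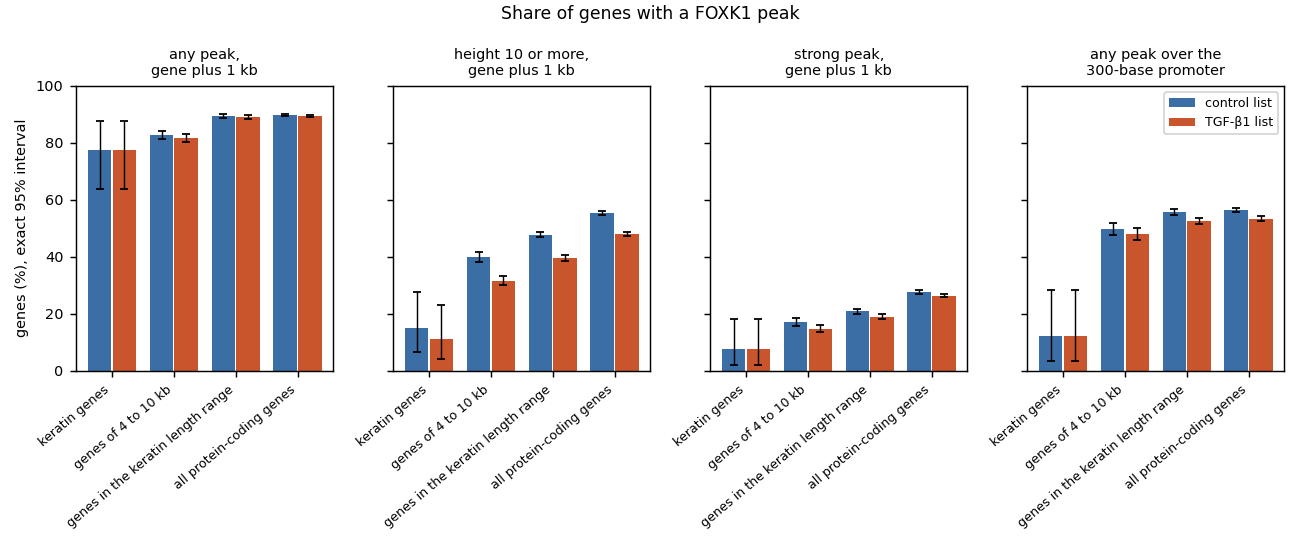
Percentage of genes (vertical axis) with a FOXK1 peak of any height, of height 10 or more, strong, or over the promoter, for the keratin genes and 3 sets of background genes; bars are the control (blue) and TGF-β1 (orange) list and error bars are exact binomial 95% intervals. The promoter panel counts only genes in the promoter table, 33 of them keratins. The keratin bars lie below every background bar for height 10 or more (15.1% and 11.3%) and for promoters (12.1% in each).

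KRT7, the type II keratin of simple and glandular epithelia, had the highest peak of the family in both lists. It was 59 high without TGF-β1 and 40 high with it. The control peak covered chr12:52243264-52244597 (hg38) and the TGF-β1 peak chr12:52243445-52244773, with 1153 bp in common. The site lay inside the gene, with the middle of the control peak 10.7 kb above its lower-coordinate end, and overlapped no other RefSeq gene. Only 0.138% of control peaks and 0.236% of TGF-β1 peaks were as high, and by its highest peak KRT7 ranked 386th and 660th among all protein-coding genes. A second, lower site near the other end of KRT7, with heights of 11 and 12, also lay in both lists and overlapped the transcribed pseudogene KRT87P. The other 3 control and 4 TGF-β1 peaks of KRT7 were between 5 and 8 high and had no counterpart.

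KRT86, a type II keratin of the hair shaft, came next, with heights of 40 and 37. Its site covered chr12:52280272-52281369 without TGF-β1 and chr12:52279939-52281455 with it, and the control peak lay wholly within the TGF-β1 peak. Its middle was 6.18 kb from the lower-coordinate end of the 34519 bp gene. The annotated KRT86 gene also contains KRT81, another hair keratin, but this site lay outside the window of KRT81. The peaks at KRT81 itself were at most 5 and 6 high. KRT81, KRT83 and KRT86 are near-identical in parts, so reads could be shared between them, and the low peaks of these genes are uncertain for that reason.

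The other high peaks of the type II genes lay at both outer parts of the cluster. KRT78, a keratin of stratified epithelia and the last member at the upper end, had heights of 21 and 17 at chr12:52847382-52847981 in the control list, a peak that the TGF-β1 peak contained. KRT3, the type II keratin of the cornea, had 12 and 17, and was strong in the TGF-β1 list only. Its 2 peaks shared 588 bp, so the site was in both lists. KRT80, the first member at the lower end and a keratin of many epithelia, had 10 control and 6 TGF-β1 peaks with highest values of 15 and 12. Its 2 control peaks of height 12 near the upper end of the gene were bridged by 1 TGF-β1 peak of height 12. KRT79, a keratin of skin appendages, had a control peak of 14 without a counterpart and a highest TGF-β1 peak of 8 elsewhere in the gene. KRT73, of the inner root sheath, lay between these outer parts and had no high peak, with 8 and 5 in separate parts of the gene.

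**Figure D2:**
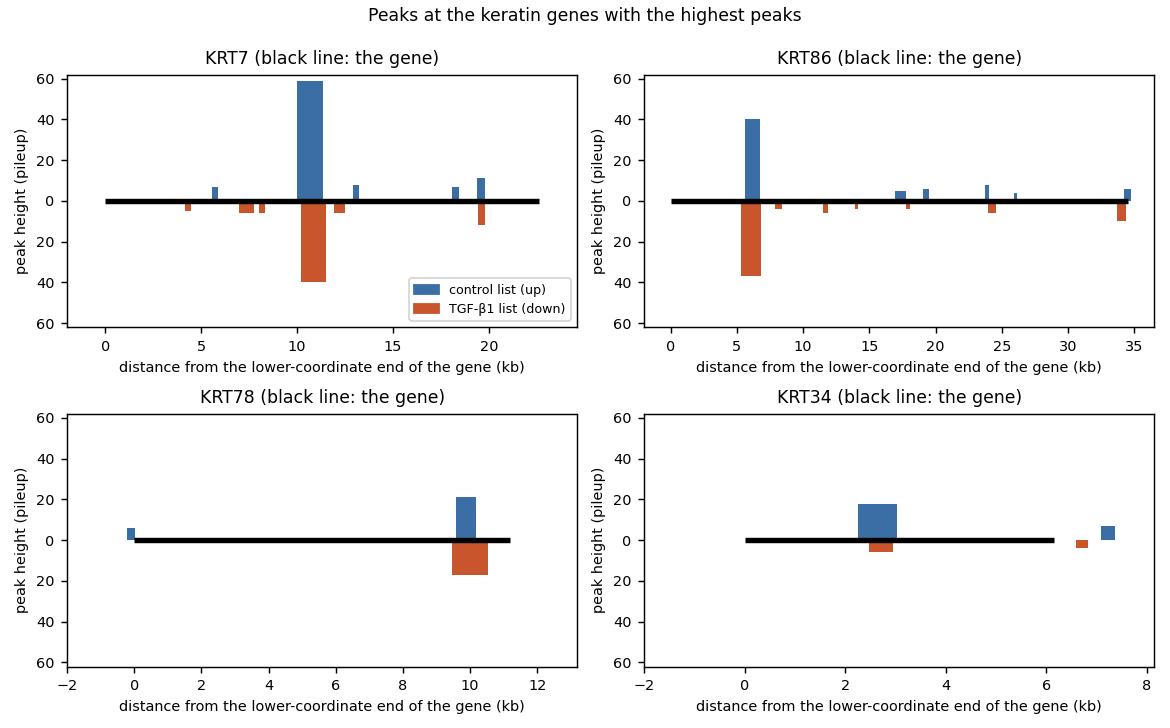
Every peak at KRT7, KRT86, KRT78 and KRT34, drawn at its distance in kb from the lower-coordinate end of the gene (horizontal axis) with its pileup height (vertical axis), control list upward in blue and TGF-β1 list downward in orange; the black line is the gene. The high sites of KRT7 (59 and 40), KRT86 (40 and 37) and KRT78 (21 and 17) have a peak of like position in both lists, and that of KRT34 has heights of 18 and 6.

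Between these outer parts, the type II cluster held no peak of height 10 or more in either list for 466 kb, from 52327829 to 52794165 on chromosome 12. This stretch was picked after the values were seen, as the longest that touched the span. It holds 16 keratin genes, from KRT85 to KRT76, including KRT5, the 3 KRT6 genes, KRT1 and KRT2. Of the 2578 stretches between such peaks on chromosome 12, with a median of 16 kb, 36 (1.40%) were as long. That share sets a picked longest stretch against stretches that were not picked. The longest at the type I span was 219 kb, and 55 of 1692 stretches on chromosome 17 (3.25%) were as long. Low peaks were present in the type II stretch, 54 control peaks with heights up to 8 and 36 TGF-β1 peaks with heights up to 9. Of its 16 keratin genes, 13 and 12 had a peak of some height. KRT5, the basal type II keratin, had 4 control peaks of at most 7 and no TGF-β1 peak, and KRT6A, a keratin of wounded epidermis, had none in either list. KRT6A, KRT6B and KRT6C are near-identical copies, so an absent or low peak there is uncertain.

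**Figure D3:**
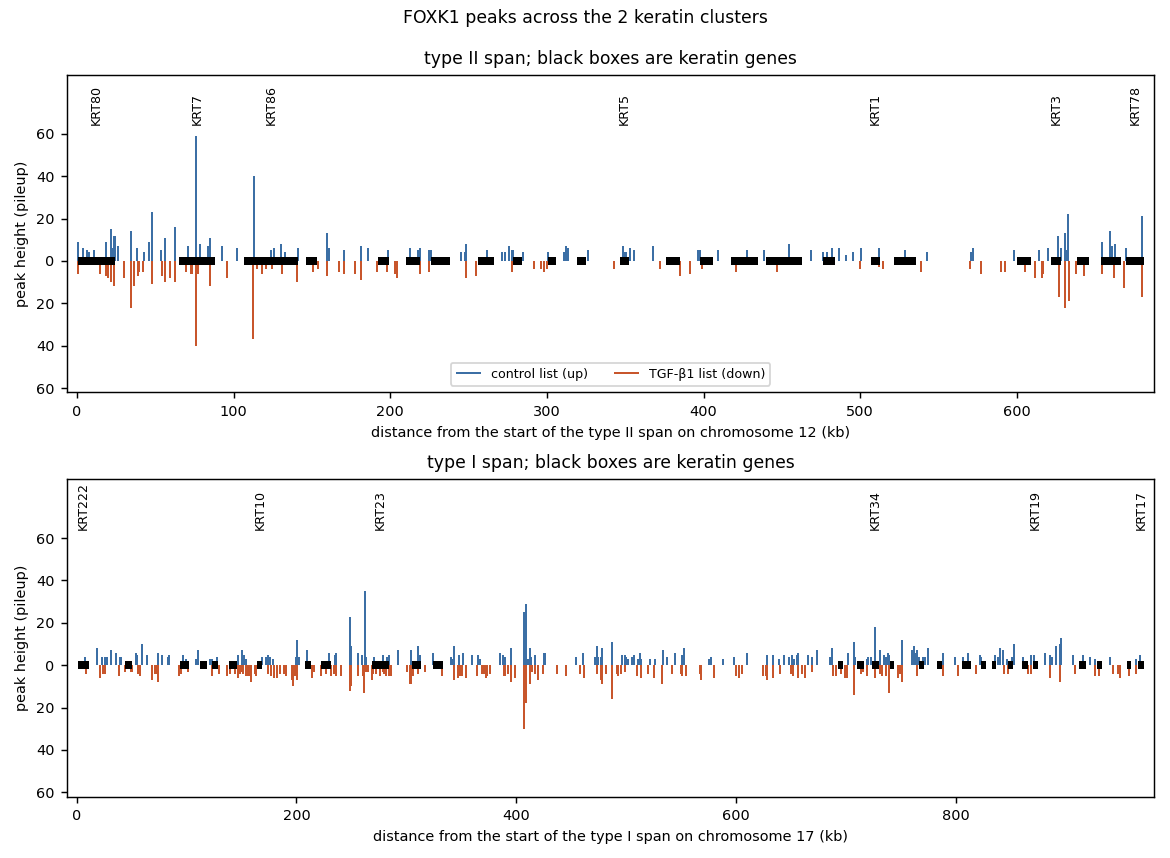
Peaks across the type II span on chromosome 12 (top) and the type I span on chromosome 17 (bottom), by distance in kb from the start of each span (horizontal axis) and pileup height (vertical axis), control list upward in blue and TGF-β1 list downward in orange; black boxes are keratin genes, some of them named. High peaks stand at both ends of the type II span with 466 kb without a peak of height 10 or more between them, and 2 of 13 control and 1 of 9 TGF-β1 peaks of that height in the type I span are at keratin genes.

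High peaks were counted at fewer type I than type II keratin genes, but the numbers are small. A peak of any height was found at 20 and 21 of 25 type II genes, and at 21 and 20 of 28 type I genes. Height 10 or more was reached by 6 and 5 type II genes, 24.0% (95% interval 9.36 to 45.1) and 20.0% (6.83 to 40.7), and by 2 and 1 type I genes, 7.14% (0.877 to 23.5) and 3.57% (0.0904 to 18.3). These intervals overlap and the genes are few. The shares of the 2 clusters were not compared directly, so this count does not set the clusters apart. In both lists together, 5 type II genes and 0 type I genes reached 10. Type II genes are also longer, with a median of 9166 bp against 5752 bp, and the part of length in the difference was not tested. Counting peaks of any height, the 682 kb type II span had 144 and 116 per Mb against 133 and 168 over the rest of chromosome 12, and the 971.9 kb type I span 176 and 185 against 148 and 160 over the rest of chromosome 17. The type II span thus stood above its chromosome in the control list and below it in the TGF-β1 list, while its high peaks did not follow that order. It held 9 and 8 peaks of height 10 or more at its keratin genes and 7 and 8 elsewhere, so that 9 of 16 and 8 of 16 were at keratin genes, against 54.1% and 50.6% of its peaks of any height. The type I span held 2 and 1 at its keratin genes and 11 and 8 elsewhere, or 15.4% (1.92 to 45.4) and 11.1% (0.281 to 48.2), against 20.5% and 23.9% of its peaks of any height. Keratin genes plus 1 kb took up 48.3% of the bases of the type II span and 23.8% of those of the type I span, and in neither span did the share of high peaks at keratin genes differ from that of all peaks by more than counting error. In peaks of height 10 or more per Mb, the type II span had 23.5 in each list against 15.5 and 12.8 over the rest of chromosome 12. The type I span had 13.4 and 9.26 against 17 and 14.1 over the rest of chromosome 17.

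KRT34, a hair keratin, was the 1 type I gene with a strong peak, with a control peak of 18 at chr17:41379925-41380701 and an overlapping TGF-β1 peak of 6. It lay just inside the limit of 17, and KRT80 with 15 was the next below it. In the TGF-β1 list, KRT3 and KRT78, each with 17, were the last above the limit of 15, and KRT31 with 13 the first below. KRT31, another hair keratin, had no peak in the control list under the 1 kb window, but a control peak of height 5 just beyond the window overlapped its TGF-β1 peak. KRT13, the type I keratin of mucosa, had a control peak of 10 without a counterpart and a highest TGF-β1 peak of 4. KRT39, of hair, had 9 and 9. The highest peaks were in separate places, although each overlapped a lower peak of the other list. KRT34, KRT31 and the KRT33 genes belong to a group of closely similar hair keratins, so their peaks share the uncertainty of the KRT6 genes.

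**Figure D4:**
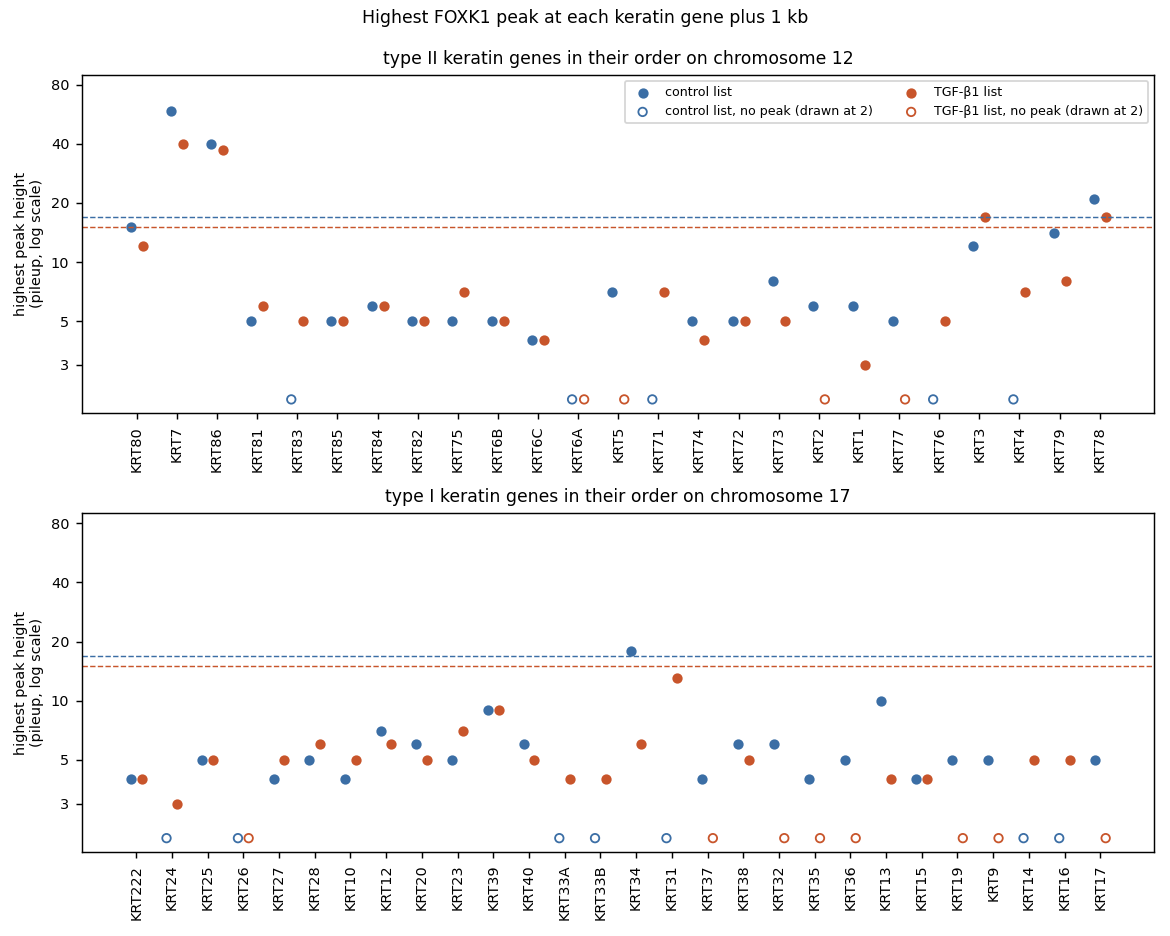
Highest peak height at each keratin gene plus 1 kb (vertical axis, log scale) in chromosome order, type II genes at the top and type I genes at the bottom; filled points are the control (blue) and TGF-β1 (orange) list, open points mark genes without a peak and dashed lines the limits for strong peaks (17 and 15). Most points lie at 7 or lower, and KRT7 and KRT86 stand highest in both lists.

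By tissue, the keratins of simple and other epithelia had peaks at 6 and 5 of 6 genes, but high ones only at KRT7 and KRT80 among them. KRT19, the simple type I keratin, had 1 control peak, of height 5, and no TGF-β1 peak. KRT20, of intestine and urothelium, had 6 and 5, KRT23 had 5 and 7, and KRT222, a keratin-like gene, had 4 and 4. None of the 3 basal genes reached 10: KRT14 was in the TGF-β1 list only, with 5, and KRT15 had 4 and 4. The 5 suprabasal genes had a peak at 5 and 2 members with heights of at most 6, among them KRT10 with 4 and 5. The 5 stress and wound genes had peaks at 3 and 3 members, none above 5, and KRT17 had 5 in the control list only. Of the 7 mucosal and corneal genes, 4 and 7 had a peak, and 3 and 2 reached 10. Of the 10 genes of the inner root sheath and companion layer, 8 and 9 had a peak, and 1 and 0 reached 10. Of the 17 hair shaft genes, 13 and 13 had a peak, and 2 and 2 reached 10. Over all protein-coding genes, 89.7% and 89.4% had a peak, and 55.2% and 48.0% reached 10. At 4 to 10 kb these shares were 82.8% and 81.8%, and 39.8% and 31.6%. Groups this small were not compared with each other directly. In the control list, their shares at height 10 or more had wide 95% intervals. These ran from 9.90 to 81.6 for the mucosal and corneal genes and from 1.46 to 36.4 for the hair shaft genes.

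Counted peak by peak, those at keratin genes lay in 1 list only about as often as those at other genes. Of 88 control peaks at keratin genes, 27 overlapped a TGF-β1 peak, or 30.7% (95% interval 21.3 to 41.4), and of 83 TGF-β1 peaks 27 overlapped a control peak, or 32.5% (22.6 to 43.7). Over all peaks at protein-coding genes the shares were 30.4% and 26.7%, so the keratin peaks did not differ from those of other genes by more than counting error. At heights under 10 the keratin shares were 23.4% and 24.3%, against 22.7% and 21% of peaks at all genes. At 10 or more, 9 of 11 (81.8%, 48.2 to 97.7) and 9 of 9 had a counterpart, against 86.6% and 89.3%. Both lists had a peak at 31 of 53 keratin genes, 58.5%, against 85.6% of all protein-coding genes, 84.1% of those in the keratin length range and 73.6% of those of 4 to 10 kb. At 20 of the 31, 64.5% (45.4 to 80.8), the highest peaks of the 2 lists did not overlap. Of all protein-coding genes with a peak in both lists this held for 41.1%, of those in the keratin length range for 39.7% and of those of 4 to 10 kb for 36.4%, all below the interval. These sets were not matched on peak height, and the highest peaks of keratin genes were lower. As given above, low peaks had a counterpart less often than high ones at all genes. The part of height in this difference was not tested. The 11 genes where the highest peaks did overlap included KRT7, KRT86, KRT78, KRT3 and KRT34. The control list alone had a peak at 10 of the 53 keratin genes with heights of 4 to 7, and the TGF-β1 list alone at 10 with heights of 3 to 13. The background counts were 818 and 763 of 20037 protein-coding genes. They were 531 and 485 of 9991 in the keratin length range, and 285 and 255 of 3078 at 4 to 10 kb. All are smaller shares than at keratin genes, and no interval was computed for them. KRT26 of the inner root sheath and KRT6A had none in either list.

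Promoters of the keratin genes with a promoter sequence were rarely covered. RefSeq promoter sequences, from 250 bases before to 50 after the start on GRCh38.p14, were matched for 33 of the 53 genes. A peak overlapped the promoter of 4 in each list, 12.1% (95% interval 3.40 to 28.2), against 56.4% and 53.4% of the 15843 protein-coding genes in the table, 55.6% and 52.6% of those in the keratin length range and 49.8% and 48.0% of those of 4 to 10 kb. The control list covered the promoters of KRT84, KRT3, KRT28 and KRT37 and the TGF-β1 list those of KRT71, KRT24, KRT28 and KRT20, all with heights of 3 to 7. KRT28, a type I keratin of the inner root sheath, was thus the 1 promoter covered in both. KRT7, KRT86, KRT78 and KRT80, which had high peaks, were not among the 33 genes, so their promoters entered no share. At KRT80, a peak of height 12 in each list crossed the upper end of the gene, whose strand was not given. Keratin promoters were also poorer in G and C, with a median of 45.7% against 62.3% over all promoters of protein-coding genes, and the part of base composition in the difference was not tested. Of the 4 keratin genes with a strong peak in each list, 0 had one within 1 kb of either gene end in the control list, and KRT78 alone had one there after TGF-β1. Of all protein-coding genes with a strong peak, 61.7% and 59.4% had one there, of those in the keratin length range 80.0% and 78.7%, and of those of 4 to 10 kb 90.7% and 89.4%. With 4 genes, the interval of the keratin share reaches 60.2% in the control list, below all 3 backgrounds but only just below the 61.7% of all genes. After TGF-β1 it reaches 80.6%, which takes in the 59.4% and 78.7% but not the 89.4%. Each share rests on 4 genes only. The counts also turn on few bases around the 1 kb limit. At KRT78 the overlapping peaks of the 2 lists ended 1013 bp (control) and 653 bp (TGF-β1) from the upper gene end. The strong TGF-β1 peak of KRT3 ended 1043 bp from the upper end of its gene.

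The promoters whose peak was the highest of its gene, or tied with others for it as at KRT24, KRT37 and KRT20, are printed below to show what the covered sequence is. Each runs 5′ to 3′ on the minus strand, and capitals mark the bases inside the peak, for KRT28 the bases inside the peaks of both lists. KRT28 lies at chr17:40799910-40800209 with heights of 5 and 6, KRT71 at chr12:52553096-52553395 with 7 in the TGF-β1 list, KRT20 at chr17:40885193-40885492 with 5 in the TGF-β1 list, KRT24 at chr17:40703703-40704002 with 3 in the TGF-β1 list, and KRT37 at chr17:41424536-41424835 with 4 in the control list.
KRT28: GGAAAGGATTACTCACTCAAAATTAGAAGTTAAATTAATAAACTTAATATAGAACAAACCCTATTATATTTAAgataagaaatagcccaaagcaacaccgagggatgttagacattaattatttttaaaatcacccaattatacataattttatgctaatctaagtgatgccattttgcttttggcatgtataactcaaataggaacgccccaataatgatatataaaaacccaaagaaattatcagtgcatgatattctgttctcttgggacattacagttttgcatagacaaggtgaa
KRT71: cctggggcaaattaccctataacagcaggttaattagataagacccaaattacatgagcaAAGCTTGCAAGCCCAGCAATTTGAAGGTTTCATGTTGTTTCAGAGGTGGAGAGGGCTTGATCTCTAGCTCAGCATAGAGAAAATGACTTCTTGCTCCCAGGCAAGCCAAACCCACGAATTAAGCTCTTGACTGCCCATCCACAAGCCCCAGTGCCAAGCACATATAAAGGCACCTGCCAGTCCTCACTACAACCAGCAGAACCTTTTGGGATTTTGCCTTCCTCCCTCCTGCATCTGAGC
KRT20: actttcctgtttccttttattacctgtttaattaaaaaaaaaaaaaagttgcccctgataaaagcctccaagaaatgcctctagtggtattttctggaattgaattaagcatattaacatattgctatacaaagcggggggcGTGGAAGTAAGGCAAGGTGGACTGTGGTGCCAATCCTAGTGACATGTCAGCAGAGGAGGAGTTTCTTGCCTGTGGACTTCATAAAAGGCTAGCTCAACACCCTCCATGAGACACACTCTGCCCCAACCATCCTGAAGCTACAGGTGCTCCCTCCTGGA
KRT24: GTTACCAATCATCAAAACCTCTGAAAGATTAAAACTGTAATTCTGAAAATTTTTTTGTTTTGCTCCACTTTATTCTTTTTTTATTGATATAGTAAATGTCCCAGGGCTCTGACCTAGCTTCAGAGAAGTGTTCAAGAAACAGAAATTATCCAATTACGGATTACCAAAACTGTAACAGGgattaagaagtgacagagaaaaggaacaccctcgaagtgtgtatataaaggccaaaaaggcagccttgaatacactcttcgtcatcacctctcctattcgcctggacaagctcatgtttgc
KRT37: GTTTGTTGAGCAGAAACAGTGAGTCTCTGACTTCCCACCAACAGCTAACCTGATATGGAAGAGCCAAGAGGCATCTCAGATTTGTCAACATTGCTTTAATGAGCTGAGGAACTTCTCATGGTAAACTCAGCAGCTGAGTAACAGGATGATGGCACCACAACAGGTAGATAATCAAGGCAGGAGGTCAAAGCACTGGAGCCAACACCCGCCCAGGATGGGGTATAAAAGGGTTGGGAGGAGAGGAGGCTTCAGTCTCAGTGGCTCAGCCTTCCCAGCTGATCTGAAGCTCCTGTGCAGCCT

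Few promoters, of keratin genes or of others, held the longer forkhead letters. GTAAACA, read on both strands, was found in 1 of the 33 keratin promoters, 3.03%, against 3.75% of the 15843 genes, and TGANTCA, the AP-1 letters, in 0 of 33 against 8.04%. None of the printed promoters with a peak held either. The 1 match was at an alternative start of KRT40, a hair keratin, at chr17:40984277-40984576 (minus strand), where no peak of either list lay. It is shown for that contrast, with the match in capitals.
KRT40: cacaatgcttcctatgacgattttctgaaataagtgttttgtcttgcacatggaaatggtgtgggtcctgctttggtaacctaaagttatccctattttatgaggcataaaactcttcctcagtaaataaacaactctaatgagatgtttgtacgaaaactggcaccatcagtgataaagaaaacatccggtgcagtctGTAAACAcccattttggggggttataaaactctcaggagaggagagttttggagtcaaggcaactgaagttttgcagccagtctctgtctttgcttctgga
The shorter core TAAACA, added after the data were seen, was in 8 of 33 keratin promoters, 24.2%, against 12.1% of all genes. No interval was computed for this share, and the part of the lower G and C content of keratin promoters in it was not tested. Of the 8, 2 (KRT20 and KRT84) had a promoter peak. The peak covered the matches at KRT84 but not the match at KRT20. A match of letters is a description and not a binding site. No genome sequence was used here, so the sequence under the high sites of KRT7, KRT86 and KRT78 is not given.

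A site shared by KRT8 and KRT18, the pair that simple epithelia make most of, had higher peaks than any other keratin gene. Its control peak of 89 and TGF-β1 peak of 71 lay inside KRT18 and overlapped only the upper end of the annotated KRT8 gene. Apart from that site, the highest peaks at KRT8 were 19 and 13. Only KRT7 and KRT86 came to 37 or more among the other keratins. The genes of filaments, junctions and factors that work with keratins are given beside them without a test of the difference. Of the 15 other intermediate filament genes, 8 and 8 had a peak of height 10 or more, 53.3% in each (26.6 to 78.7), close to the 55.2% and 48.0% of all genes. LMNA, which encodes the lamins A and C of the nuclear envelope, had 54 and 50, LMNB2 had 40 and 29, and VIM, the mesenchymal filament vimentin, 11 and 8. Of the 21 desmosome, hemidesmosome and plakin genes, 13 and 10 reached 10. DST, the linker dystonin, had 46 and 52, PLEC, the linker plectin, 29 and 22, and JUP, the desmosomal plakoglobin, 25 and 16. Of 16 regulators of keratin genes, 9 and 5 reached 10, with KLF5 at 47 and 46, TFAP2A at 36 and 40, and TP63, the master factor of stratified epithelia, at 18 and 32. Many of these genes are longer than keratins, and the lists were not matched on length. Of 14 cornified envelope genes, 4 and 3 reached 10, and of 94 short keratin-associated genes, 2 and 2. These were KRTAP2-3, with 25 and 30 over its promoter, and KRTAP4-6, with 11 and 16.

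**Figure D5:**
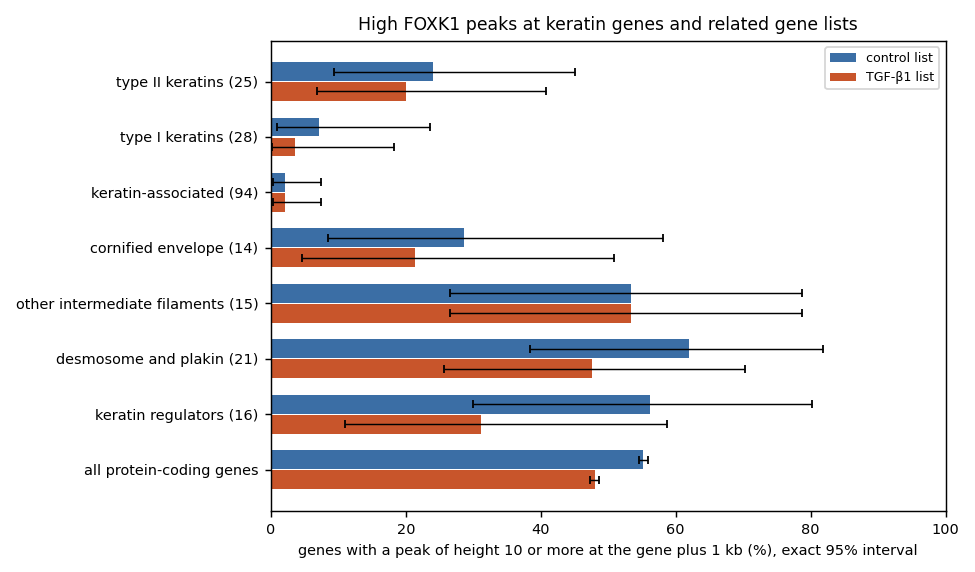
Percentage of genes with a peak of height 10 or more at the gene plus 1 kb (horizontal axis) in each gene list (number of genes in brackets), control list in blue and TGF-β1 list in orange, with exact binomial 95% intervals. Type I keratins (7.14% and 3.57%) and keratin-associated genes (2.13% in each) lie lowest, and the other intermediate filament genes (53.3% in each) lie near all protein-coding genes.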

How the data were processed

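FOXK1 ChIP-seq of HK-2 cells with and without TGF-β1 gave 2 deposited peak lists, each FOXK1 library against its input per the peak names in the files. The authors deposited a signal per peak in a column without a header. Its values are whole numbers never under 3 and were read as the peak's pileup height, which no source used here states. The tools were bcl2fastq 2.17 and MACS2 2.1.1.20160309 and the build hg38, per the submitters' processing notes. Aligner, filters, threshold and depth are not given in the sources used here, so depth limits every height and count to an unknown extent.

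Scripts in Python 3.11.15 (pandas 2.3.3, numpy 2.4.6, scipy 1.17.1, matplotlib 3.10.9) took the peaks of 24 assembled chromosomes. Starts were read as counting from 0, which the files do not state. A peak belonged to a gene when it overlapped the RefSeq gene (GRCh38.p14, the chromosome coordinates of hg38) plus 1 kb by at least 1 bp. Strand came from the promoter table where a gene is in it; exons were not used here. Overlap counting was checked on simulated data. Named are keratin genes with a strong peak, the 10 highest of each list, those next to the strong limit and 12 fixed genes. Members and lists were chosen with earlier results of these data known. With 1 library per group there was no test. Alternatives varied the window, the overlap, the height minimum, the strong limit and the coordinate base.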

Additional observations from a re-analysis of the deposited data

How the results depend on the processing

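Of 89 values recomputed under planned settings, 68 kept within 1.5 times their main value or, for shares, within its 95% interval. A minimum height of 10 moved all 13 results it was applied to. Keratin genes with a peak fell to 8 and 6 (control value first, type II 6 and 5, type I 2 and 1, both lists 5). With the minimum applied to both lists, the shares of peaks overlapping the other list rose to 72.7% and 77.8%. The 81.8% and 9 of 9 given above accept a counterpart of any height. Peaks per Mb fell to 23.5 and 23.5 in the type II span and 13.4 and 9.26 in the type I span. A minimum of 5 moved the type I span to 103 and 107 peaks per Mb. Keratin genes with a peak in both lists numbered 48 with 5 kb windows and 20 at gene ends only. Genes with a strong peak numbered 0 and 1 at gene ends only, and 2 and 2 when strong meant the 5000 highest. No paired analysis was possible because each group had 1 library. Depth is unknown, and peaks under height 10 mostly lay in 1 list only, as they did at all genes, so presence or absence of such a peak at a keratin gene is weak information.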

Other observations

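Several high peaks of the keratin clusters lay outside the windows of keratin genes and entered no count of keratin genes. They were picked after the values were seen. In the gap between KRT3 and KRT4 on chromosome 12, a site at 52798306 to 52799449 had a control height of 13 and a TGF-β1 height of 22, and one at 52800640 to 52801206 had 22 and 19. Between KRT80 and KRT7, a site at 52201990 to 52203669 had 14 and 22, and one at 52215132 to 52217037, which overlapped the long noncoding RNA gene LINC00592, had 23 and 11. On chromosome 17, a site at 40915258 to 40916272 between KRT20 and KRT23, within the long noncoding RNA gene LOC105371777, had 35 and 13. A pair of sites at and beside KRTAP2-3, a gene with close copies in the same block, had 25 and 30, and 29 and 18.

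Of 12 keratin pseudogenes within the 2 spans, 4 had a control peak, 5 a TGF-β1 peak and 3 of them both. The highest was KRT87P with 11 and 12, from the peak it shared with KRT7, and KRT90P had 8 and 8.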
